A study of Mus musculus and Rattus norvegicus with 24 samples.

Results

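The genes described here encode the nuclear subunits of complex III, complex IV and ATP synthase in the mitochondrial inner membrane, with cytochrome c and the factors that help assemble complexes III and IV. All listed genes were taken whose mouse symbol begins with Uqc, with Cox and a digit, or with Atp5, together with Cyc1 and Cycs. Cox4i1, Cox6a1, Cox6a2, Cox7a1, Cox7a2, Cox8a and Cox8b were left out. The rule found 48 of the 9595 listed genes. They were 9 subunits of complex III, 8 of complex IV and 15 of ATP synthase, cytochrome c, 3 assembly factors of complex III, 10 assembly and supercomplex factors of complex IV, and 2 further genes with an Atp5 name.

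The study sequenced RNA from single cardiomyocytes, with 8 cells in each of 3 groups. Transplanted cells were heart muscle cells made from mouse embryonic stem cells, injected into a neonatal rat heart and isolated after 30 days in vivo. Adult cells were isolated from the ventricles of wild-type adult rats. Cultured cells came from the same kind of mouse stem cell cardiomyocytes, kept for 30 days in vitro. Transplanted and cultured cells shared 1 genotype, mESC Isl1-Cre; Rosa-RFP; aMHC-GFP, in which the alpha myosin heavy chain promoter (aMHC, the Myh6 gene) drives the green reporter. Both therefore represent a single stem cell genotype, and the adult cells are of another species. The labels name no animal, host heart or culture dish, so a group stands as 1 sample and its cells are no replicates. Differences between groups carry no test, and the intervals given below are exact 95% intervals that cover counting error only. Reads amplified by PCR without molecular identifiers are not independent molecules, so these intervals are the least uncertainty the counts allow.

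Complex III takes electrons from ubiquinol and hands them to cytochrome c, a small carrier protein. Complex IV, cytochrome c oxidase, passes them on to oxygen. Both pump protons across the inner membrane, and ATP synthase lets the protons flow back through a rotating ring and uses that motion to make ATP. Heart muscle is dense in mitochondria and obtains most of its ATP in this way. Most subunits are encoded in the nucleus, and those found by the rule are described here, while those encoded in mitochondrial DNA were not analysed here.

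The libraries differed between groups in ways that touch every comparison with cultured cells. Total counts per cell ran from 88796 to 344224 in transplanted cells, from 108546 to 223744 in adult cells and from 16099 to 60789 in cultured cells. Counts in cultured cells also lay on longer genes. With Ttn left out, the median exon length behind a count was 1950 to 2304 bases in transplanted cells, 2044 to 2353 bases in adult cells and 3730 to 6983 bases in cultured cells. Cultured cells fell into libraries with a high and a low share of Rpph1, the RNA of nuclear ribonuclease P. It took 0% of counts in transplanted cells and at most 0.00179% in adult cells, against 2.51% to 5.48% in cultured cells B, C, D and E and 0.0202% to 0.0574% in cultured A, F, G and H. The 10 cardiomyocyte markers (Myh6, Tnnt2, Actc1, Tnni3, Tnnc1, Myl2, Myl3, Pln, Ryr2 and Ttn) together took 11.8% to 20.2% of counts in transplanted cells and 12.3% to 18.2% in adult cells. Among cultured cells they took 4.65% to 16.8% in B to E and 1.499% in A, but only 0.00541% in F, 0% in G and 0.00419% in H, so these 3 libraries did not show the cell type of their label. Not all markers of other cell types were among the listed genes. Listed were 6 of 8 for fibroblasts, 3 of 6 for endothelium and 5 of 6 for smooth muscle and pericytes. For leukocytes 1 of 6 (Cd68) and for pluripotent cells 1 of 5 (Nanog) were listed, so these types were hardly checked. The listed markers were low in every group. Their highest share in any cell was 0.00901% in transplanted, 0.00175% in adult and 0.109% in cultured cells, and Col3a1, Dcn, Postn, Cdh5 and Kdr had no count in any group. What these differences contribute to the results was not tested.

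As a group, the 48 genes took a far larger part of the RNA in transplanted and adult cells than in cultured cells. Per cell, their share of all counts had a lowest value of 10.8%, a median of 12.8% and a highest value of 14.7% in transplanted cells. In adult cells the lowest, median and highest shares were 10.2%, 12.1% and 13.6%. In cultured cells they were 0.196%, 0.671% and 2.91%. Every transplanted and every adult cell lay above every cultured cell, while the transplanted and adult ranges overlapped. The cultured cells differed most among themselves, from 0.196% to 0.394% in B to E and from 0.947% to 2.91% in A, F, G and H. The lower shares were in the libraries with a high share of Rpph1, and cultured A, at 2.91%, was the highest.

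**Figure D1:**
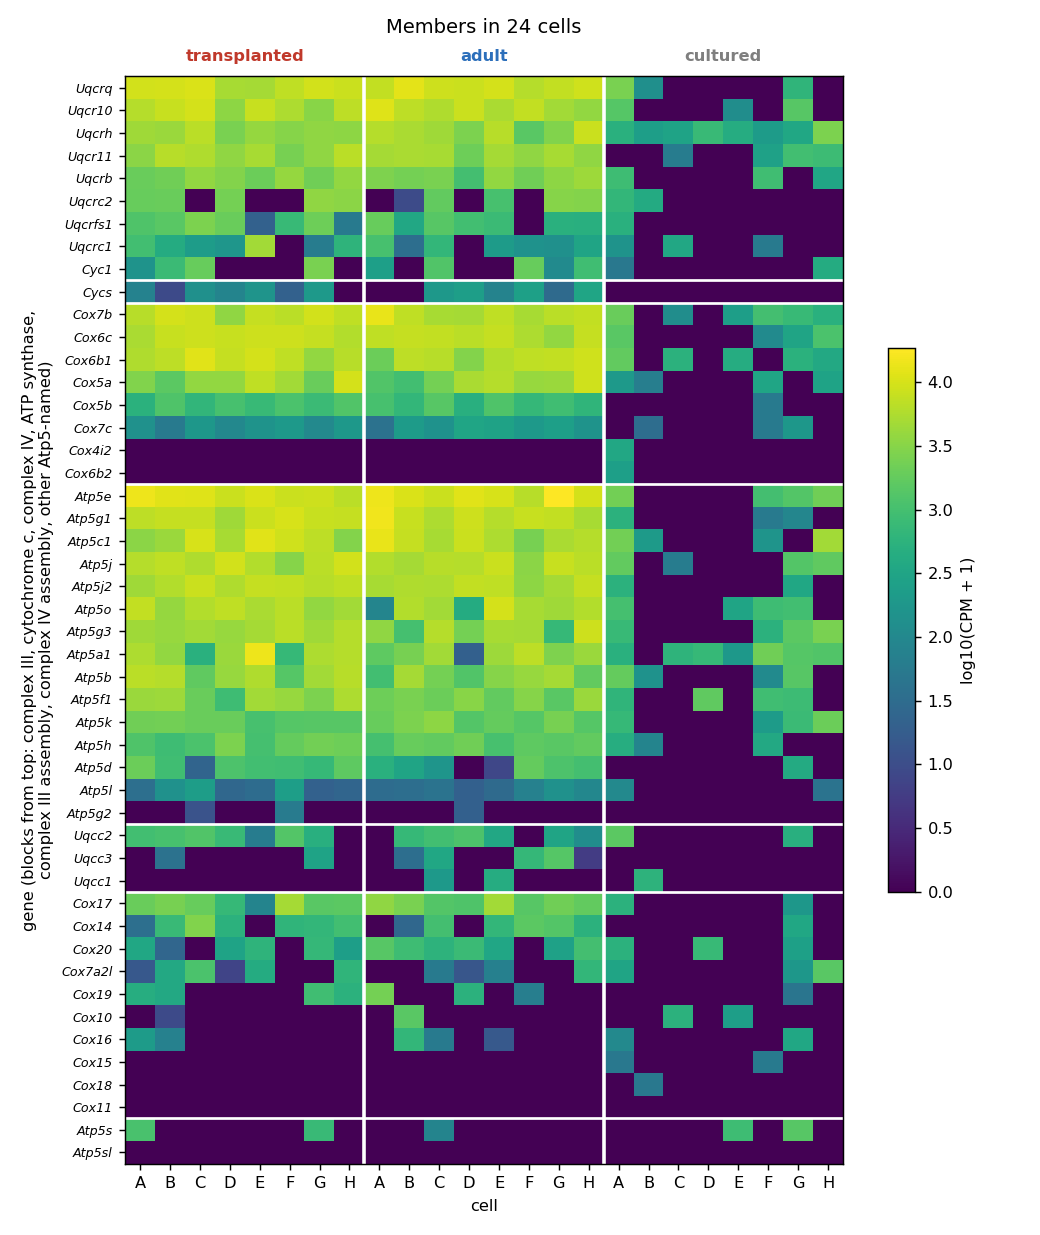
Levels of all 48 genes in the 24 cells, as log10 of CPM plus 1 (CPM, counts per 1000000 counts), with genes in rows by role and cells in columns by group. Subunit rows are bright across transplanted and adult cells and mostly dark in cultured cells, while the assembly factors at the bottom are patchy in every group.

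In summed counts each complex took a larger share in transplanted and adult cells than in cultured cells. Between transplanted and adult cells, the transplanted share was larger for complex IV and ATP synthase and slightly smaller for complex III. Their single cells overlapped for each complex, at 2.22% to 4.14% against 2.27% to 3.61% for complex III. The ranges were 2.08% to 3.45% against 2.07% to 3.36% for complex IV and 5.93% to 8.25% against 5.25% to 6.55% for ATP synthase. Complex III subunits took 3.02% of counts in transplanted cells and 3.06% in adult cells, against 0.206% in cultured cells. Subunits of complex IV took 2.86% in transplanted and 2.55% in adult cells, against 0.131% in cultured cells. Cultured A decided part of the last value, which was 0.0810% without it. For ATP synthase the shares were 6.73% in transplanted cells, 6.08% in adult cells and 0.522% in cultured cells. Between single cells the coefficient of variation of these shares was 11.3% to 20.9% in transplanted and 8.86% to 16.7% in adult cells, but 95.6% to 119% in cultured cells.

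**Figure D2:**
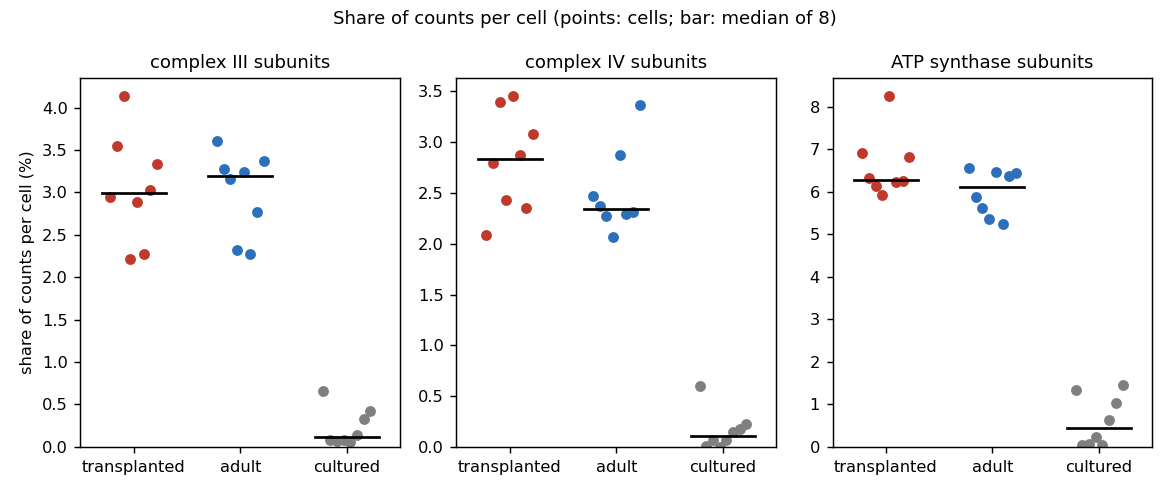
Share of each cell's counts (%) in the subunits of complex III, complex IV and ATP synthase, with 1 point per cell and a bar at the median of 8 cells. For each complex all transplanted and all adult points lie above all cultured points.

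The balance between the complexes, over the subunits found by the rule, was similar in transplanted and adult cells. The complex IV counts lack Cox4i1, Cox6a1, Cox6a2, Cox7a1, Cox7a2, Cox8a and Cox8b, so they do not stand for the whole complex. Of the counts on subunits, complex III held 23.96% in transplanted, 26.2% in adult and 23.998% in cultured cells (22.02% to 26.1% in cultured cells). Complex IV held 22.7% in transplanted and 21.8% in adult cells, against 15.2% (13.6% to 17.0%) in cultured cells. ATP synthase held 53.3% and 52.0% in transplanted and adult cells, against 60.8% (58.4% to 63.0%) in cultured cells. Leaving out any 1 cultured cell gave 12.0% to 16.9% for complex IV and 57.6% to 64.6% for ATP synthase in that group. So in the summed counts of all cultured cells complex IV made up a smaller and ATP synthase a larger part. Single cultured cells ranged from 0% to 39.3% for complex IV. The ATP synthase result depended on cultured F, G and H, which lacked cardiomyocyte markers. Over cultured A to E alone, complex III, complex IV and ATP synthase took 0.157%, 0.104% and 0.267% of counts. Of those subunit counts, ATP synthase made up no larger part than in transplanted or adult cells. Complex IV still made up a smaller part.

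Fewer of the genes were seen per cultured cell even at equal depth. After each cell was thinned to 16099 counts, the depth of the shallowest cell, a median of 33 of the 48 genes had a count in transplanted cells (29 to 38), 33 in adult cells (29 to 38) and 12.5 in cultured cells (4 to 33). Before thinning the medians were 34, 35 and 13. Over all listed genes the order was the other way, with medians of 599 genes in transplanted, 682.5 in adult and 1459 in cultured cells after thinning. The 32 subunits alone gave medians of 27 in transplanted, 27 in adult and 11 in cultured cells.

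Gene by gene, levels were compared as CPM, the counts per 1000000 in the summed counts of a group, for genes with at least 10 counts over both groups. A gene was called at least 2-fold higher or lower from its log2 ratio with 1 CPM added to both levels. Of the 48 genes, 42 could be compared between transplanted and cultured cells, of which 36 reached 2-fold on the higher side and 2 on the lower side in transplanted cells. Over all 4958 genes compared, 26.7% were called higher and 63.9% lower. Since counts in cultured cells lay on longer genes, the shares are also given for short genes: among the 435 genes with at most 1500 bases of exon, 54.5% were called higher and 27.4% lower. All 9 complex III subunits, all 6 complex IV subunits that could be compared and all 15 ATP synthase subunits were on the higher side. Atp5g2 is in that last count with 10 counts against 0, and its lower bound of 0.527 does not fix a direction. Atp5l, in the same count, had 101 counts against 3 and a ratio of 5.33 (1.77 to 26.3), which does not show 2-fold. Of the 50-base stretches in its principal annotated transcript, 84.8% also occur in other genes, so its counts are uncertain. The assembly factor Uqcc3, also among the 36, had 35 counts against 0 and a lower bound of 1.85, which does not show 2-fold. On the lower side were the assembly factors Uqcc1 and Cox10. Median log2 ratios were 4.27 for complex III, 4.47 for complex IV and 3.71 for ATP synthase, against -5.63 over all genes compared and 1.51 over the short ones. In 16 genes every transplanted cell lay above every cultured cell, which held for 1.33% of all genes compared; the reverse held for 0 members and 0.101% of all genes.

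Adult over cultured cells gave a similar picture, and since this comparison shares the cultured cells it is no independent one. Of 41 genes compared, adult cells were higher by 2-fold or more in 37 and lower in 2. The backgrounds were 28.6% higher and 62% lower over 5132 genes, and 54.1% higher and 29.9% lower over the 425 short ones. All subunits compared (9 of complex III, 6 of complex IV and 14 of ATP synthase) were higher, with median log2 ratios of 3.83, 4.24 and 3.37, against -3.85 over all genes compared and 1.49 over the short ones. On the lower side were Uqcc1 and Atp5s. Among the subunits called higher, Atp5l had 77 counts against 3 and a ratio of 4.16 (1.37 to 20.6), which does not show 2-fold. Every adult cell lay above every cultured cell in 15 genes, against 1.27% of all genes compared, and the reverse held for 0 members and 0.0585% of all genes.

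Counts in cultured cells were low, so the calls were repeated with at least 10 counts in each group. Then 27 of 31 genes were higher and 0 lower in transplanted over cultured cells, where the background was 26.2% higher and 44.6% lower. In adult over cultured cells 29 of 33 were higher and 2 lower, with a background of 23.7% higher and 49.9% lower. Over all genes compared in that way the median log2 ratio was -0.65 in the comparison of transplanted with cultured cells and -0.99 in that of adult with cultured cells. The median over all genes also turned with the minimum. With at least 50 counts over both groups it was 0.26 in transplanted over cultured cells, with 44.0% of genes higher and 41.1% lower, and 34 of 38 members were higher and 0 lower. In adult over cultured cells it was 0.19, with 43.6% higher and 41.8% lower, and 37 of 41 members were higher and 2 lower. The cultured libraries named above were also left out in turn, a choice made after the data were seen. Without cultured F, G and H, which lacked cardiomyocyte markers, 38 of 42 genes were higher in transplanted cells (background 34.7%) and 37 of 41 in adult cells (background 35.9%). Without cultured B, C, D and E, which had much Rpph1, 34 of 40 were higher in transplanted cells (background 39.6%) and 36 of 41 in adult cells (background 42.1%). Over cultured A, F, G and H alone the median log2 ratios in transplanted over cultured cells were 3.17, 3.37 and 2.60 for complexes III, IV and ATP synthase, and 1 subunit in each comparison fell short of 2-fold, Atp5k in transplanted (log2 ratio 0.71) and Atp5l in adult cells (0.76).

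**Figure D3:**
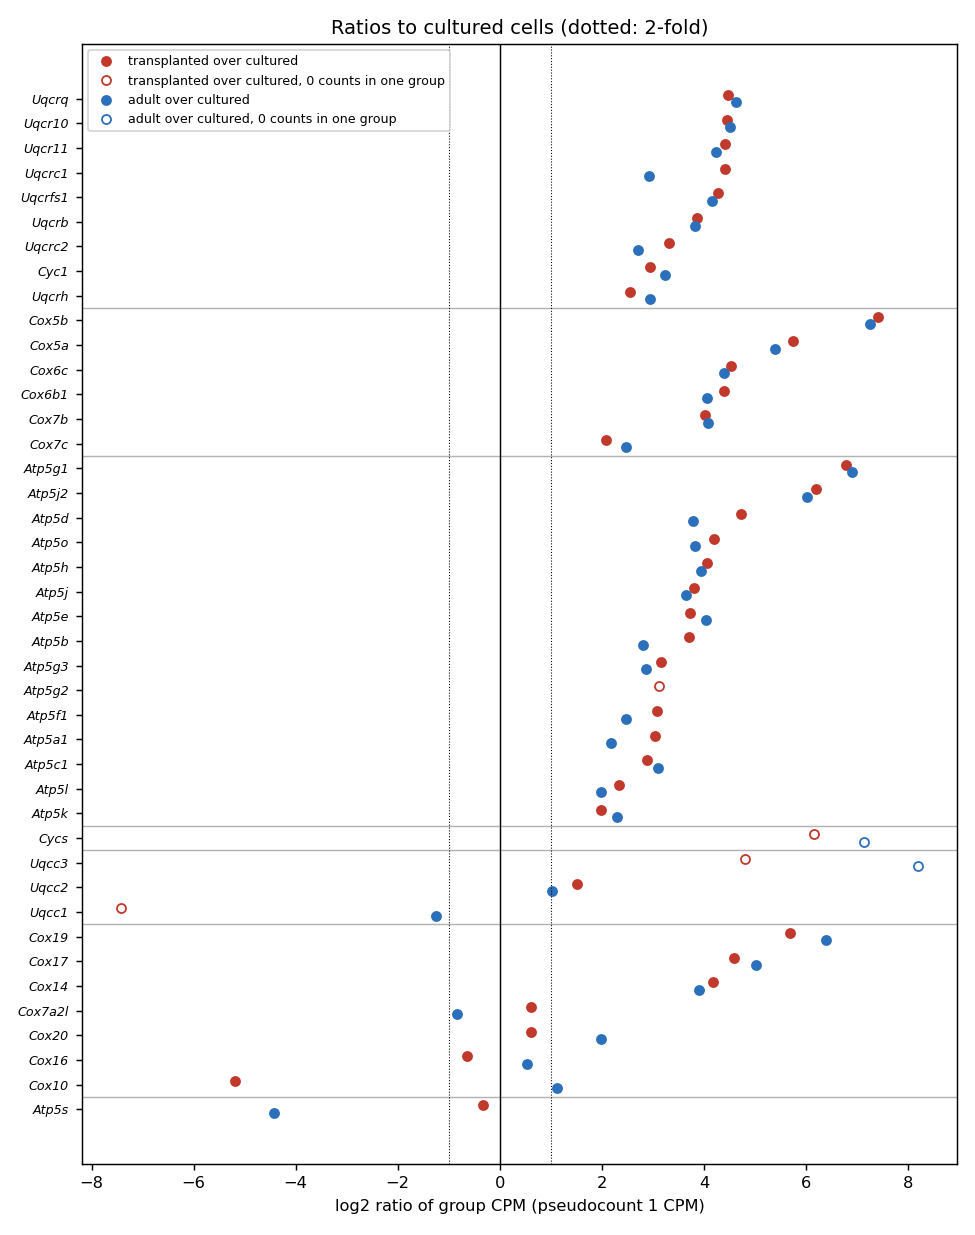
Log2 ratios of group CPM with 1 CPM added, transplanted over cultured (red) and adult over cultured (blue), for the genes that could be compared. Open circles mark genes with 0 counts in 1 group, dotted lines mark 2-fold, and the subunits of all 3 complexes lie to the right of the upper line in both comparisons.

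Complex III has a catalytic core, in which Cyc1 (cytochrome c1) and Uqcrfs1 (the Rieske iron-sulfur protein) carry electrons and Uqcrc1 and Uqcrc2 form the large core proteins. Small supernumerary subunits surround it, among them Uqcrq, Uqcr10, Uqcr11, Uqcrb and Uqcrh, the hinge protein next to cytochrome c1. Uqcrq, the subunit with most counts, had a lowest, median and highest cell value of 4930, 8866 and 10654 CPM in transplanted cells. It had 6071, 8567 and 12462 CPM in adult cells and 0, 0 and 2524 CPM in cultured cells. Transplanted and adult cells overlapped and lay wholly above cultured cells, of which 5 had no count. Its group level was 22.4 times (17.7 to 28.6) that of cultured cells in transplanted cells and 24.8 times in adult cells. Cultured A decided much of these ratios, which were 66.2 and 73.3 without it.

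Uqcr10 behaved alike, with cell values of 3245, 6566 and 9786 CPM (lowest, median and highest) in transplanted cells, 3740, 6231 and 11549 CPM in adult cells and 0, 0 and 1412 CPM in cultured cells. No cultured cell reached any transplanted or adult cell. The group ratio was 21.9 in transplanted over cultured cells, 35.6 without cultured A and 41.0 without cultured G. It was 22.9 in adult over cultured cells, with 37.2 and 42.9 without these cells.

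Uqcrh was the complex III subunit least different between transplanted and cultured cells. It had 2512, 3741 and 6622 CPM (lowest, median and highest cell) in transplanted and 1474, 4921 and 8285 CPM in adult cells, against 216, 394 and 2638 CPM in cultured cells, all 8 of which had counts. Cultured H, at 2638 CPM, overlapped with the lowest transplanted and adult cells, and the other cultured cells did not. The group ratio was 5.84 (4.91 to 6.98) in transplanted over cultured cells and 7.70 (6.49 to 9.21) in adult over cultured cells. Without cultured H these were 9.74 and 12.9.

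The core genes, apart from Cyc1 picked after their values were seen, were lower and patchier than the small subunits. Cyc1 had 0, 77.5 and 2546 CPM (lowest, median and highest cell) in transplanted, 0, 180 and 1861 CPM in adult and 0, 0 and 419 CPM in cultured cells. It was at 0 in 4 transplanted, 3 adult and 6 cultured cells, so the groups overlapped. The group ratio to cultured cells was 7.80 (4.32 to 15.7) in transplanted cells, but 4.47 without transplanted G and 75.8 without cultured H. The ratio in adult cells was 9.60 (93.3 without cultured H). Uqcrc2 was at 0 in 3 transplanted and 3 adult cells, and Uqcrfs1 had all its cultured counts in cultured A. Levels of different genes can be set side by side per kilobase of the principal annotated transcript. On that scale Cyc1 had 274, Uqcrc1 632, Uqcrfs1 702 and Uqcrc2 974 CPM per kilobase in transplanted cells, against 5528 (Uqcrb) to 19291 (Uqcrq) for the other subunits. Single cells set part of this, since Uqcrc1 was at 245 CPM per kilobase without transplanted E, which held 914 of its 1362 counts, and Cyc1 at 157 without transplanted G. In adult cells the core genes had 225 (Uqcrc1) to 643 (Uqcrfs1) CPM per kilobase and the others 5423 to 21359, with Uqcrc1 at 135 without adult A. In cultured cells the core genes had 29.3 to 97.2 CPM per kilobase and the others 381 to 1188. These cultured levels rest on few cells, and without 1 cell Cyc1 was at 3.61 (H), Uqcrc1 at 12.8 (C), Uqcrc2 at 47.2 (B) and Uqcrfs1 at 0 (A) CPM per kilobase. The core genes were also the lowest in transplanted and adult cells per kilobase of all annotated exons.

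Cytochrome c itself, from Cycs, was scarce in all groups. It had 0, 80.3 and 200 CPM (lowest, median and highest cell) in transplanted cells, 0, 133 and 327 CPM in adult cells and no count in any cultured cell. Because 1 transplanted and 2 adult cells also had no count, the groups overlapped. Against a floor of 3 counts over the cultured group, its level was at least 4.80-fold higher in transplanted and at least 9.62-fold higher in adult cells. The exact intervals start lower, at 3.83 in transplanted and 7.74 in adult cells. Transplanted over adult the ratio was 0.499 (0.383 to 0.646), the lowest of any electron carrier or subunit compared. Of the 50-base stretches in its principal annotated transcript, 28.5% also occur in other genes (76 of them), so its counts are uncertain.

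In complex IV the nuclear subunits sit around a core that mitochondrial DNA encodes. Cox5a and Cox5b lie on the matrix side, Cox6b1 lies on the side where cytochrome c docks, and Cox6c, Cox7b and Cox7c are small membrane subunits. Cox7b had 3580, 7341 and 9927 CPM (lowest, median and highest cell) in transplanted cells, 4877, 6896 and 13042 CPM in adult cells and 0, 375 and 1918 CPM in cultured cells. All cultured cells lay below the others, and 6 of them had a count. The ratio to cultured cells was 16.2 (13.2 to 20.2) in transplanted and 17.0 (13.8 to 21.1) in adult cells, or 25.2 and 26.3 without cultured A.

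Cox6c ranged around medians of 8144 CPM in transplanted, 7297 CPM in adult and 54.1 CPM in cultured cells, with a lowest value of 5191 CPM in transplanted and 3723 CPM in adult cells, above the highest cultured value of 1514 CPM. Its ratio to cultured cells was 23.2 in transplanted and 21.1 in adult cells, or 38.5 and 34.9 without cultured A. Cox6b1 had medians of 7134, 6612 and 406 CPM in transplanted, adult and cultured cells, and its lowest adult cell, at 2047 CPM, still lay above the highest cultured cell, at 1767 CPM. The ratios were 21.1 and 16.7 in transplanted and adult cells over cultured cells, and 37.1 and 29.4 without cultured A. In these subunits transplanted and adult cells overlapped throughout.

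Cox5b and Cox5a, chosen after their values were seen, had the highest ratios in the complex. Cox5b had 528, 932 and 1293 CPM (lowest, median and highest cell) in transplanted cells and 488, 810 and 1422 CPM in adult cells, against 1 count in all cultured cells together. That single count, in cultured F, gives a ratio of 204 (36.6 to 8082) in transplanted and 183 (32.8 to 7237) in adult cells. Without cultured F the floor of 3 counts gave 62.0 and 55.6, values that are no interval limits. Cox5a had 21 counts in 4 cultured cells and ratios of 54.2 (35.4 to 87.6) in transplanted and 42.4 (27.7 to 68.6) in adult cells. Every transplanted and adult cell lay above every cultured cell for both genes. Cox7c stood at the low end, at 147 CPM in transplanted, 192 CPM in adult and 34.0 CPM in cultured cells, with ratios to cultured cells of 4.32 (2.06 to 10.9) and 5.65 (2.70 to 14.2) in transplanted and adult cells. Without cultured G these were 8.97 and 11.7. More than any other complex IV subunit compared, Cox7c shares its sequence with other genes, at 53.0% of its 50-base stretches, so its counts are uncertain.

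Subunits without counts in transplanted and adult cells could not be compared. Cox4i2, the isoform of subunit 4 known from lung and low oxygen, had 7 counts, and Cox6b2, the isoform of subunit 6b known from testis, had 5. All of them were in cultured A. Without that cell both genes were at 0 in all groups. By the floor of 3 counts over a group, the counts of 0 allow up to 2.30 CPM in transplanted and 2.36 CPM in adult cells.

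ATP synthase consists of a catalytic head of alpha (Atp5a1) and beta (Atp5b) subunits, a central stalk with gamma (Atp5c1), delta (Atp5d) and epsilon (Atp5e), a ring of subunit c (Atp5g1, Atp5g2 and Atp5g3), a peripheral stalk (Atp5o, Atp5f1, Atp5h and Atp5j) and small membrane subunits (Atp5j2, Atp5k and Atp5l). Atp5e, the smallest stalk protein, had the most counts of the 48 genes. Its cell values were 6647, 9609 and 14151 CPM (lowest, median and highest) in transplanted, 6320, 10419 and 18412 CPM in adult and 0, 487 and 2272 CPM in cultured cells. Cultured cells lay wholly below the others and 4 of them had no count. The ratio to cultured cells was 13.3 (11.3 to 15.8) in transplanted and 16.5 (14.0 to 19.5) in adult cells. Per kilobase of principal transcript it was the highest subunit of the complex in each group, at 22393 CPM per kilobase in transplanted, 27722 in adult and 1682 in cultured cells. Per kilobase of all annotated exons it remained highest in transplanted and adult cells, while Atp5k was highest in cultured cells.

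The head subunits, named after their values were seen, were less abundant per length, at 2346 (Atp5a1) and 2623 (Atp5b) CPM per kilobase in transplanted, 1299 and 1398 in adult and 287 and 200 in cultured cells, where Atp5b was at 120 without cultured A. Atp5a1 had 518 to 14519 CPM in transplanted cells and 19.5 to 6919 CPM in adult cells, and overlapped with cultured cells, 7 of which had counts, at up to 2219 CPM. Its ratio to cultured cells was 8.19 (6.95 to 9.71) in transplanted and 4.53 (3.84 to 5.38) in adult cells. For Atp5b the ratios were 13.1 (10.5 to 16.6) in transplanted and 6.99 (5.59 to 8.85) in adult cells, or 21.8 and 11.6 without cultured A.

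Atp5c1, which turns inside the head, had 3004, 6084 and 11826 CPM (lowest, median and highest cell) in transplanted, 2432, 5817 and 13444 CPM in adult and 0, 81.2 and 4689 CPM in cultured cells. Cultured H, at 4689 CPM, held most of the cultured counts and overlapped with the other groups. The ratio to cultured cells was 7.43 (6.39 to 8.69) in transplanted and 8.61 (7.40 to 10.1) in adult cells, and 18.6 and 21.6 without cultured H. Atp5k, the e subunit, had the lowest ratio of the complex in transplanted cells, at 3.98 (3.20 to 5.005), and 4.93 (3.96 to 6.20) in adult cells. Without cultured H these were 8.20 and 10.2. Next to Atp5g1, described below, the highest ratios were those of Atp5j2, the f subunit, with 19 counts in 2 cultured cells and ratios of 73.7 (47.2 to 123) and 65.4 (41.8 to 109) in transplanted and adult cells, which were 158 and 140 without cultured A.

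The genes of subunit c differed widely in their ratios to cultured cells. Atp5g1, Atp5g2 and Atp5g3 encode different targeting peptides followed by the same mature protein. Their coding sequences can still be told apart by sequencing, as the last 228 coding bases, stop codon included, show for the genes that carried nearly all counts. They are given here from the mm10 build with GENCODE M21, 5′ to 3′ on the coding strand, with the bases that differ between them in capitals. Atp5g1 lies at chr11:96068852-96075670 and Atp5g3 at chr2:73908447-73911326, both on the minus strand.
Atp5g1: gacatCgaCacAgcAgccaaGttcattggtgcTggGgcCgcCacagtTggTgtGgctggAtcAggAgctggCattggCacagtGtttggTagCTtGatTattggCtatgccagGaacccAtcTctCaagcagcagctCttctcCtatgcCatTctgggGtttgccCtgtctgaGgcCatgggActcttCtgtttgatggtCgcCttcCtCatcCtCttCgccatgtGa
Atp5g3: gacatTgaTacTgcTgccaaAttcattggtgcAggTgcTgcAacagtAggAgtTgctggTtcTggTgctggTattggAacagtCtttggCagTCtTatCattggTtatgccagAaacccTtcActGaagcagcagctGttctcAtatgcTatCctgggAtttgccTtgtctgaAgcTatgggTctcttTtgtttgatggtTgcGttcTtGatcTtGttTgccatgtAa
They differ at 46 of 228 bases, an identity of 79.8%, yet all 76 codons have the same meaning, and the longest stretch without a difference is 11 bases. None of the 50-base stretches in the principal transcript of Atp5g3 occurs in another gene. In that of Atp5g1 66.0% do, in 3 pseudogenes, so the counts of Atp5g1 are less certain than those of Atp5g3.

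Atp5g1 had 4456, 7738 and 10162 CPM (lowest, median and highest cell) in transplanted cells, 5028, 7777 and 14941 CPM in adult cells and 0, 0 and 555 CPM in cultured cells. Transplanted and adult cells lay wholly above cultured cells, where 5 cells had no count and 11 of 14 counts came from cultured A. Its ratio to cultured cells was 112 (67.0 to 206) in transplanted and 122 (72.6 to 223) in adult cells, or 474 and 514 without cultured A. Atp5g3 had 3985, 4606 and 6680 CPM in transplanted, 727, 4226 and 8573 CPM in adult and 0, 271 and 2512 CPM in cultured cells. Cultured A, G and H overlapped with the lowest adult cells, but no cultured cell reached a transplanted one. The ratio was 8.89 (7.42 to 10.7) in transplanted and 7.25 (6.05 to 8.76) in adult cells, and 15.7 and 12.8 without cultured H. Atp5g2 had 10 counts in transplanted, 3 in adult and 0 in cultured cells. Of the 50-base stretches in its principal annotated transcript, 100% also occur in 2 pseudogenes. Its counts, and the subunit c totals that include them, are therefore uncertain.

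Atp5g1 made up most of the subunit c counts in transplanted and adult cells and few in cultured cells. Its part was 59.6% (58.8% to 60.3%) in transplanted, 66.2% (65.5% to 67.0%) in adult and 10.4% (5.83% to 16.9%; 14 of 134 counts) in cultured cells. Per cell it was 52.5% to 65.8% in transplanted and 37.0% to 91.1% in adult cells. Only 4 cultured cells had subunit c counts, with 42.3% in A, 9.09% in F, 5.41% in G and 0% in H. All transplanted cells lay above these 4, whereas adult H, at 37.0%, lay below cultured A. The cultured value rests on few cells: it was 2.78% without cultured A and 18.9% without cultured H. Leaving out F, G and H, which lacked cardiomyocyte markers, left 26 of the 134 cultured counts, all in A, and a part of 42.3%. Adult cells spread far more than transplanted cells, and their counting intervals do not overlap at the ends, from 35.2% to 38.8% in adult H and from 89.5% to 92.6% in adult G.

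**Figure D4:**
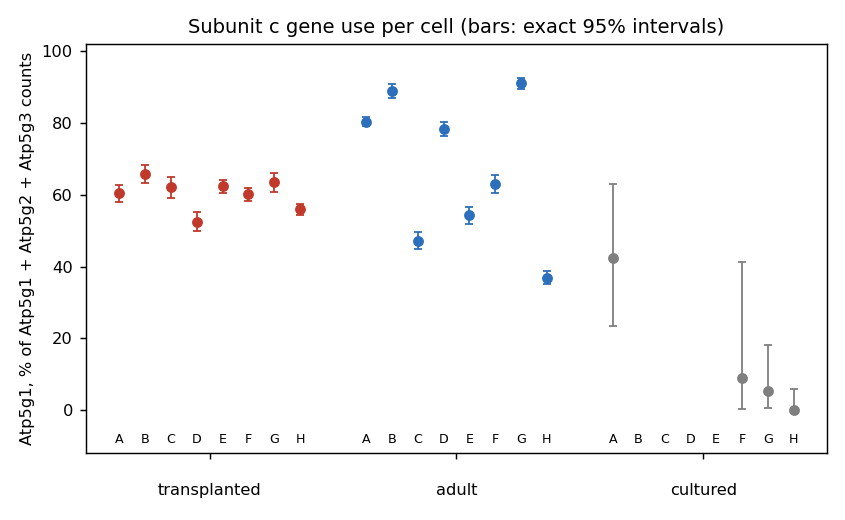
Percent of subunit c counts that came from Atp5g1 in each cell, with exact 95% counting intervals; cultured B to E had no subunit c count. Transplanted cells lie between 52.5% and 65.8%, adult cells between 37.0% and 91.1%, and 3 of the 4 cultured cells below 10%.

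The start regions of both genes are shown because their ratios to cultured cells differed. They are 300 bases each, 250 before and 50 after the annotated start, from RefSeq on GRCm38.p6. Atp5g1 is at chr11:96075582-96075881 and Atp5g3 at chr2:73911277-73911576, both on the minus strand and given 5′ to 3′ on the coding strand, with matches to searched motifs in capitals.
Atp5g1: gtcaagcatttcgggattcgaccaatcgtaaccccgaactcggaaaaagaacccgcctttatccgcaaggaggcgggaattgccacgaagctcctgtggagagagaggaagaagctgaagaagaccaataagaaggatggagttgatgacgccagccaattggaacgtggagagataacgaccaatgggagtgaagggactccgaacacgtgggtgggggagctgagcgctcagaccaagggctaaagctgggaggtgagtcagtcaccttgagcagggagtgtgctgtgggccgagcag
Atp5g3: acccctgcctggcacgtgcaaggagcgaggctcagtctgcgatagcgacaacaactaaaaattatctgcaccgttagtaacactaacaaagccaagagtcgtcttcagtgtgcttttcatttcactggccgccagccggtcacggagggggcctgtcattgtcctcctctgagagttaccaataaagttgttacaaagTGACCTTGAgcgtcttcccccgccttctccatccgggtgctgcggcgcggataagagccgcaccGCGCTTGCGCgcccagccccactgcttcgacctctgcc
Letters searched on both strands were those of NRF1 (GCGC, any base, TGCGC), GABPA (CCGGAAG), estrogen-related receptors (T, any base, AAGGTCA), YY1 (AAGAT, then GGC, any base and G) and SP1 (GGGCGG), known from promoters of respiratory chain genes. The Atp5g3 window holds an NRF1 match and an estrogen-related receptor match on the opposite strand, and the Atp5g1 window holds a match to none of the searched letters. Windows were found for 39 of the 48 genes. NRF1 letters were in 8 of them (20.5%), against 5.19% of 27025 genes, and GABPA letters in 13 (33.3%), against 9.93%. YY1 letters were in 6 (15.4%) against 1.60%, SP1 letters in 18 (46.2%) against 38.2%, and estrogen-related receptor letters in 1 (2.56%) against 1.43%. These matches describe letters and not binding, and they were not tied to the levels.

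The assembly factors did not share the uniform pattern of the subunits. For complex III, 2 of 3 factors were higher by 2-fold or more and 1 lower in transplanted over cultured cells, and likewise in adult over cultured cells, against 26.7% and 63.9% of all genes in transplanted over cultured cells and 28.6% and 62% in adult over cultured cells. So few genes cannot be read against these shares, and single cells decided several of the calls. Uqcc2 had 583 CPM in transplanted, 416 CPM in adult and 204 CPM in cultured cells. Its ratio to cultured cells was 2.86 in transplanted and 2.04 in adult cells. These became 9.87 and 7.05 without cultured A, but 2.02 and 1.44 without cultured B, where the adult ratio fell short of 2-fold. The adult interval of 1.49 to 2.87 does not show 2-fold either. Uqcc1 had no count in transplanted cells, 90 counts in 2 adult cells and 35 counts in cultured B alone. Its ratio of 0.417 in adult over cultured cells turned to at least 3.43-fold higher without cultured B and was 0.146 without adult E, and without cultured B it had no ratio in transplanted cells. Uqcc3 had 35 counts in 2 transplanted and 369 in 5 adult cells, and none in cultured cells. It was at least 1.85-fold higher in transplanted cells, but its bound was 0.286 without transplanted G and so fixed no direction. In adult cells it was at least 19.9-fold higher, or at least 8.12-fold without adult G.

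For complex IV, 7 of the 10 factors could be compared between transplanted and cultured cells, with 3 higher and 1 lower by 2-fold or more. In adult over cultured cells 5 of 7 were higher and 0 lower. The shares of all genes and of short genes given above were 26.7% and 54.5% higher in transplanted over cultured cells and 28.6% and 54.1% higher in adult over cultured cells. Cox10, an enzyme of heme synthesis, is 1 of the 5 with a ratio of 2.18, but all its adult counts were in adult B, and without that cell it was at least 24.2-fold lower. Cox16, within 2-fold at 1.46 in adult over cultured cells, was at 0.179 without adult B. Cox10 was also the factor called lower in transplanted over cultured cells, with 1 count against 13. Cox20 was called higher in adult (3.94) but not in transplanted cells (1.52), where its ratio was 2.95 without cultured D. Cox17, the copper chaperone of the enzyme, was at 1763 CPM in transplanted, 2387 CPM in adult and 72.8 CPM in cultured cells. Its adult cells, from 1244 CPM up, all lay above the highest cultured cell, at 555 CPM, but the lowest transplanted cell, at 81.7 CPM, did not. The ratio to cultured cells was 24.2 (14.7 to 43.4) in transplanted and 32.8 (19.9 to 58.7) in adult cells, or 82.1 and 111 without cultured A. Of the 50-base stretches in the principal transcript of Cox17, 52.7% also occur in another gene, so its counts are uncertain. Cox14, which helps build subunit 1, had ratios of 18.4 and 15.2 on 8 cultured counts, all in cultured G. Cox11, Cox15 and Cox18 had at most 3 counts in any group. Cox7a2l, which joins complexes III and IV into supercomplexes, had 0, 192 and 1149 CPM (lowest, median and highest cell) in transplanted, 0, 6.51 and 658 CPM in adult and 0, 0 and 1507 CPM in cultured cells. The groups overlapped, and its ratio to cultured cells of 1.54 in transplanted and 0.560 in adult cells became 6.25 and 2.28 without cultured H, while the adult ratio was 0.0845 without adult H.

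Transplanted and adult cells differed little. Of 42 genes compared, 4 reached 2-fold on the higher side and 5 on the lower side in transplanted cells, and 33 lay within 2-fold, where over all 3501 genes 34.6% were higher and 44% lower (28.5% and 27.5% over the 418 short genes). Median log2 ratios were 0.03 for complex III, 0.15 for complex IV and 0.29 for ATP synthase, against -0.37 over all genes compared, or 0.02 with at least 10 counts in each group. In no gene did all cells of one group lie above all cells of the other, as for 0% of all genes compared. The species differs along with the group here, and both were counted against the mouse build, so group, species and mapping cannot be told apart.

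**Figure D5:**
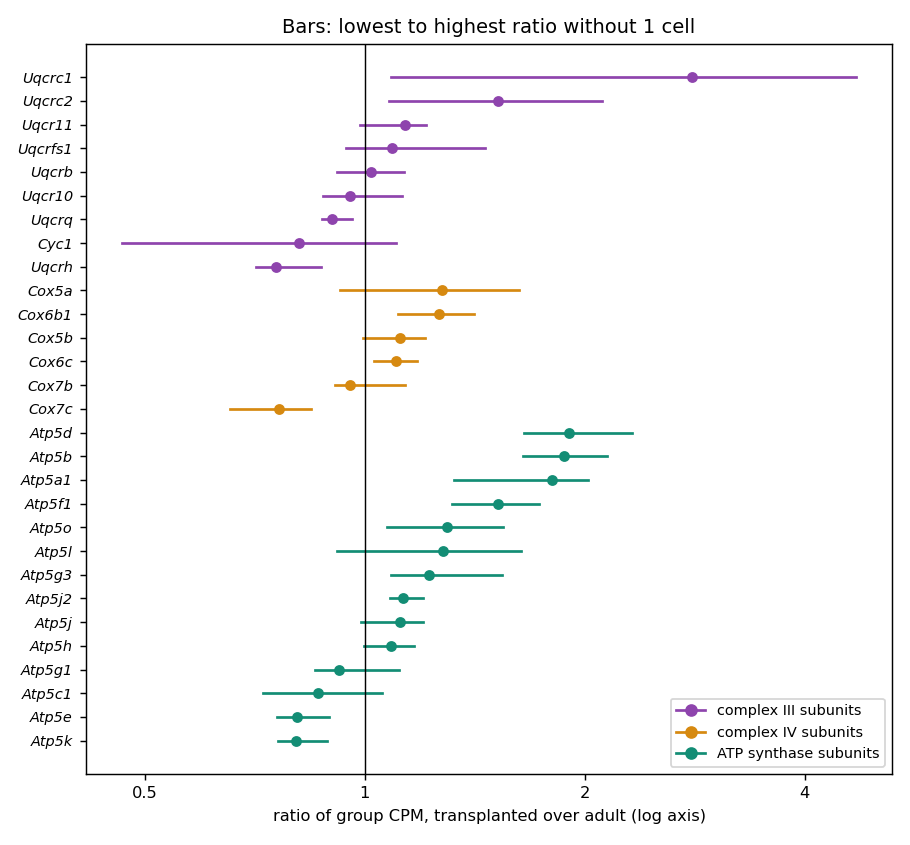
Ratios of group CPM, transplanted over adult, for 29 subunits on a log axis, with bars from the lowest to the highest ratio when 1 cell of either group is left out (Atp5g2, Cox4i2 and Cox6b2 are not drawn). Apart from Uqcrc1, whose bar reaches from 1.09 to 4.70, the ratios lie between 0.757 (Uqcrh) and 1.90 (Atp5d).

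Only 2 subunits passed 2-fold between them. Uqcrc1 had a ratio of 2.81 (2.53 to 3.13), but transplanted E alone, at 4669 CPM, set it, and the ratio was 1.09 without that cell and 4.70 without adult A. Atp5g2 had 10 counts against 3 and a ratio of 3.25 (0.838 to 18.4), and 9 of the 10 were in transplanted F. Among the others, Atp5d, Atp5b and Atp5a1 of the head and stalk had ratios of 1.90 (1.74 to 2.08), 1.88 (1.80 to 1.96) and 1.81 (1.74 to 1.88). On the lower side were Uqcrh at 0.757 (0.730 to 0.786), Cox7c at 0.764 (0.629 to 0.927), Atp5k at 0.807 (0.761 to 0.855) and Atp5e at 0.808 (0.789 to 0.827). Counting intervals of most of these exclude 1, but the cells of both groups overlapped for every gene. Cyc1 had 0.813 (0.724 to 0.912), or 0.466 without transplanted G.

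The other genes called past 2-fold between transplanted and adult cells were Atp5s and 6 assembly and supercomplex factors. Cycs, at a ratio of 0.499, was not called, since its log2 ratio with 1 CPM added was -0.993. Cox7a2l was 2.74 times (2.28 to 3.31) as high in transplanted cells, and 18.2 times without adult H. Atp5s, known as coupling factor B, had 232 counts in 2 transplanted cells and 12 in 1 adult cell, a ratio of 18.9, which was 7.21 without transplanted A and at least 66.9 without adult C. Its ratio to cultured cells was 0.798 in transplanted and 0.0423 in adult cells, or 2.33 and 0.124 without cultured G. Lower in transplanted cells were Uqcc1 (at least 30.7-fold lower, and at least 10.7-fold without adult E), Uqcc3 (a ratio of 0.0926, or 0.0143 without transplanted G and 0.227 without adult G), Cox10, Cox16 and Cox20. Cox10 had 175 adult counts, all in adult B, and Cox16 had a ratio of 0.434, which became 3.54 without adult B and 0.110 without transplanted A. Cox20 was steadier between cells, at 281 CPM in 6 transplanted cells with a count and 727 CPM in 7 adult ones, with a ratio of 0.387 (0.342 to 0.437). Of the 50-base stretches in the principal transcripts, 68.2% for Cox20 and 88.7% for Cox16 also occur in other genes, so their counts are uncertain. Cox19, within 2-fold at 0.605, was at 3.44 without adult A.

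Complex I, the entry point of electrons from NADH, gave the same direction. Of 36 listed complex I subunits 35 were in the data, and all 35 were higher by 2-fold or more in transplanted over cultured and in adult over cultured cells, with median log2 ratios of 4.43 and 4.46. They took 10.5% of counts in transplanted, 9.45% in adult and 0.688% in cultured cells. Of the 4 complex II subunits, 2 were higher and 1 lower in transplanted over cultured cells and 3 higher and 0 lower in adult over cultured cells. Sdha, the flavoprotein of complex II, had 49.9 CPM in transplanted, 1105 CPM in adult and 189 CPM in cultured cells. A further list outside the naming rule held mostly assembly and expression factors, with the subunit genes Ndufa4 and Usmg5 and the ATP synthase inhibitor Atpif1. Among its 16 comparable genes 10 were higher and 4 lower in transplanted over cultured cells. Of 18 in adult over cultured cells 11 were higher and 3 lower. Ndufa4 and Usmg5 were among the higher ones in both. They had 8522 and 1245 CPM in transplanted, 8993 and 1315 in adult and 500 and 72.8 in cultured cells. Over all genes 26.7% were higher and 63.9% lower in transplanted over cultured cells, and 28.6% and 62% in adult over cultured cells. Transplanted over adult, 7 of 20 genes of this list were higher and 7 lower, near the 34.6% and 44% over all genes. The 14 listed regulators of mitochondrial genes, such as Ppargc1a and Nrf1, were too scarce to describe, at 0.00936% of counts in transplanted, 0.00763% in adult and 0.0674% in cultured cells.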

How the data were processed

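RNA of 24 single cells was measured, 8 in each group, named by the letters of the sample titles, which pair nothing. The authors deposited raw counts of reads for each gene in each cell. TopHat2 2.1.0, HTSeq, DESeq2 and mouse build mm10, the last for mouse and rat cells alike, stand as tools and build per the submitters' processing notes, with no role given. Which tool counted, with what annotation and strand setting, and how the listed genes were chosen is not given in the sources used here. Totals are of listed genes, of which 692 had no count. The protocol names 19 cycles of PCR and no molecular identifiers, per the labels.

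Counts were summed per group and divided by its total (1302871 in transplanted, 1271528 in adult and 206178 in cultured cells) to give CPM. Chi-square tests of the counts of any pair of cells within a group gave at least 13.6 per degree of freedom, so no cell was a copy of another. Intervals are exact, at 95%: Poisson for CPM, conditional binomial for ratios and Clopper-Pearson for shares. Against 0 counts a floor of 3 counts over the group gives a bound, and no ratio is given where both groups had at most 3. Such a bound, written as at least, is set by the floor and is no 95% limit. For Uqcc1 in transplanted over adult cells the exact limit was 24.5-fold lower, against 30.7-fold by the floor. Gene positions, union exon lengths and transcripts came from GENCODE M21 on mm10; of the listed symbols 99.2% matched, 180 of them through older names. Motifs were searched in RefSeq windows.

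Genes named with cell values are the 3 subunits per complex with the highest mean group CPM, Cycs, Cyc1, the paralog groups of subunit c, Cox4i2, Cox6b1, Cox6b2, Cox7b and Cox7a2l, and subunits whose ratio opposes the median of their complex; others were chosen after their values were seen. The members and the lists were chosen with earlier results of these data known. The calculations were tested on simulated data. Alternatives were TMM factors of edgeR 4.0.16, size factors of DESeq2 1.42.0, equal cell weights, a minimum of 50 counts or none, a pseudocount of 5 CPM and leaving out each cell. Added after the data were seen were at least 10 counts in each group, transcript length, the use of cultured cells A to E or of A, F, G and H only, and cell weights and single cells for the subunit c part and the split by complex. Python 3.11.15, numpy 2.4.6, pandas 2.3.3, scipy 1.17.1 and R 4.3.3 were used.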

Additional observations from a re-analysis of the deposited data

Results flagged for a closer look

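In 43 sets of 8 or 4 cells of a group, the highest or lowest cell was compared with the rest by Dixon's ratio of gap to range, with a critical value of 0.526 for 8 cells; chance flags about 1 set in 20. A cell stood apart in 6 sets. Transplanted E had 8.25% of its counts on ATP synthase subunits, and the other transplanted cells had 5.93% to 6.90%. Adult A had 13042 CPM of Cox7b, and the other adult cells had 4877 to 7399 CPM. The same cell had 14941 CPM of Atp5g1, and the others had 5028 to 8771 CPM. Cultured A had 0.601% of its counts on complex IV subunits, with 0% to 0.230% in the other cultured cells. It also had 0.156% on complex III assembly factors, with 0% to 0.0576% in the others. Cultured H had 2638 CPM of Uqcrh, and the other cultured cells had 216 to 789 CPM.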

How the results depend on the processing

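No paired analysis was possible because the results come from no test and the letters only name cells. No complex median past 2-fold changed direction under the alternatives run; the small medians of complexes III and IV in transplanted over adult cells lay near 0 and changed sign when some single cells were left out (complex III: transplanted C, F, G or H, or adult B, D or F; complex IV: transplanted H). TMM factors moved the median log2 ratio of all genes compared by 0.87 in transplanted over cultured and by 0.88 in adult over cultured cells, and with them the medians of complexes III, IV and ATP synthase to 5.18, 5.38 and 4.63 in transplanted over cultured and to 4.74, 5.16 and 4.29 in adult over cultured cells; this scaling called 38 members higher in each. DESeq2 size factors gave 0.11, 0.24 and 0.38 in transplanted over adult cells, and equal cell weights gave 0.10 for complex III there. With cultured A to E only, the medians over cultured cells were 4.25 for ATP synthase in transplanted cells and 4.39, 4.78 and 4.45 in adult cells. With cultured A, F, G and H only, they were 3.17, 3.37 and 2.60 in transplanted and 2.95, 3.13 and 2.28 in adult cells. Equal cell weights gave an Atp5g1 part of subunit c of 60.4% in transplanted and 67.5% in adult cells. A minimum of 50 counts raised the share of higher calls among all called genes to 51.7%, against 29.5%, in transplanted over cultured and to 51.0%, against 31.6%, in adult over cultured cells.

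Leaving out 1 cell gave medians in transplanted over cultured cells of 3.91 to 4.45, 3.96 to 5.23 and 3.23 to 4.12 for complexes III, IV and ATP synthase, with 35 to 38 members higher. In adult over cultured cells they were 3.62 to 4.09, 3.73 to 4.99 and 2.93 to 3.66, with 35 to 37 higher. In transplanted over adult cells they were -0.074 to 0.17, -0.032 to 0.22 and 0.15 to 0.50, with 3 to 6 higher. The Atp5g1 part was 59.0% to 61.0% in transplanted, 61.2% to 72.7% in adult and 2.78% to 18.9% in cultured cells. Leaving out cultured B, which held 60789 of the 206178 cultured counts, gave the lowest median of each complex in transplanted over cultured cells. Many single ratios fell as well without that cell. In transplanted over cultured cells Atp5e went from 13.3 to 9.39, Cox7b from 16.2 to 11.4 and Atp5k from 3.98 to 2.80. Depth limits the cultured levels, where 3 counts over the group correspond to 14.6 CPM.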
